A study of Mus musculus with 4 samples.

Results

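Semaphorins, plexins and neuropilins are 31 mouse genes for a family of guidance ligands and their receptors: 20 semaphorins, 9 plexins and 2 neuropilins. Their SOX2 peaks were chosen by position alone: a peak belonged to a gene when its centre lay inside or within 50 kb of the gene's RefSeq span and no protein-coding gene was nearer. This gave 64, 67 and 57 of the 17730, 17628 and 15891 peaks of IP libraries 1, 2 and 3. Overlapping peaks were joined into 104 regions of 27083 in all, and 28 of these, of 9334 in all, held a peak of every IP library. SOX2, a transcription factor of neural stem cells and astrocytes, had been mapped by ChIP-seq, in which an antibody pulls down a protein with the DNA it sits on, and that DNA is sequenced. All 4 samples were cortex of wild-type male C57BL/6 mice aged 2 months: 3 libraries pulled down with a rabbit anti-SOX2 antibody (IP) and 1 input library without antibody. The series concerns SOX2 deletion in astrocytes and recovery after brain injury, but no label names an injury or a SOX2 deletion in these samples. A label field lists SOX2 as transduced in every sample, which goes against the wild-type tissue of the protocol.

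Whether the IP libraries stem from different mice is not stated, so their spread may be technical. The tissue was whole cortex and the files hold no RNA, so the cell types behind a region could not be checked against markers. The libraries held 32492927 to 41875666 tags (placed reads), of which 1.06% to 1.36% lay in peaks, and a peak needed a score of 14, 13 and 16 tags in IP libraries 1, 2 and 3. The score is not the strength: computed from the strength, the lowest peak held about 12, 10 and 12 tags. Strength is the authors' normalized tags, the tags of a peak scaled to a library of 10000000 tags. There is only 1 condition, so no groups were compared and no test was run; values are given per library and as mean ± SD over the 3 IP libraries.

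Semaphorins are secreted or membrane-bound proteins that steer growing axons and migrating cells and later shape synapses and blood vessels. Plexins are their main receptors, whose inner part acts on small GTPases and the cytoskeleton. Most secreted class 3 semaphorins reach A-type plexins through a neuropilin co-receptor, class 4 semaphorins signal mainly through B-type plexins, and class 5, 6 and 7 semaphorins bind plexins directly. In the cortex these proteins guide neurons and their axons during development, and several are made by glia in the adult.

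Both B-type plexin genes with a region in all 3 libraries carried it across a listed transcription start. Their promoter sequences (RefSeq, GRCm38.p6, whose coordinates are those of mm10) are shown with both Sema4b windows that overlapped a region of 2 libraries (the second one upstream of its start), to set the letters under the peaks side by side. Each window runs 5′ to 3′ on the gene's strand from 250 bases before to 50 bases after the start, and capitals mark the part inside the region.
Plxnb1, chr9:109095186-109095485, plus strand: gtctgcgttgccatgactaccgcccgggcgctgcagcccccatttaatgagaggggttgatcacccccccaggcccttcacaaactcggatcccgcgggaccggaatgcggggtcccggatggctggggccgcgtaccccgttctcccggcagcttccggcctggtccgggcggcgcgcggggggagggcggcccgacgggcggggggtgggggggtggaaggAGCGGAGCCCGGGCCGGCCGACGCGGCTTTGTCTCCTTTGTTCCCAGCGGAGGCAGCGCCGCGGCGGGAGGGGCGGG
Plxnb2, chr15:89180739-89181038, minus strand: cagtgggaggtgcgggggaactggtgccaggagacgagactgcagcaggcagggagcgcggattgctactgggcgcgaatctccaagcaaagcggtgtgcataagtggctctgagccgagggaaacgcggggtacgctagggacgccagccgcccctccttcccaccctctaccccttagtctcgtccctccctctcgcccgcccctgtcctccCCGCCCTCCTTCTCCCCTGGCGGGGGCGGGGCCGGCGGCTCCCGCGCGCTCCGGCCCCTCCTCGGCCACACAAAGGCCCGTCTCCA
Sema4b, chr7:80186620-80186919, plus strand: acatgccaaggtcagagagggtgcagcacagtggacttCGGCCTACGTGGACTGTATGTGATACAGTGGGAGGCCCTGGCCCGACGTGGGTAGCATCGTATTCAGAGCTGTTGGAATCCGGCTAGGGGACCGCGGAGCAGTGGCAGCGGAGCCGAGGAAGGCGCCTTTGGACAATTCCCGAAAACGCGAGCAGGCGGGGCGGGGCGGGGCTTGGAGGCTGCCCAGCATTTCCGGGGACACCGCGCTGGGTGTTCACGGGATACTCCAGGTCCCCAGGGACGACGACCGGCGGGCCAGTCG
Sema4b, chr7:80198338-80198637, plus strand: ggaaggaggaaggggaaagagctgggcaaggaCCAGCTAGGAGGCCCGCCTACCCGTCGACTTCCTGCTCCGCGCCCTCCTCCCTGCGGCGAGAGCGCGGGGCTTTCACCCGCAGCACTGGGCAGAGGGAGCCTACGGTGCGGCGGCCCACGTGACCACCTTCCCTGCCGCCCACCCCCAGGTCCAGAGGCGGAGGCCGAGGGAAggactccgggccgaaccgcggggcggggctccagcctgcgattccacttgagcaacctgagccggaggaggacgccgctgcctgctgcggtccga

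The windows were searched on both strands for ACAAAG and ACAATG, core letters that SOX proteins bind, and for the octamer ATGCAAAT, which POU factors bind; a stretch of 6 bases can match only 1 of the first 2. Counting window positions from 1, with the start site at 251, Plxnb1 held ACAAAG on its minus strand (read as CTTTGT above) at positions 250 and 259, both in the capitals. Plxnb2 held ACAAAG at position 284, also in the capitals. Neither Sema4b window held any of the 3 motifs, nor did the window of Sema6c that overlapped a region of 2 libraries. ACAAAG was also in 6 windows of these genes that overlapped no peak, those of Sema3a, Sema3c, Sema3d, Sema4f and Plxnb3 and one of Sema6d, so that 8 of all 37 windows held it (21.6%). ACAAAG is common: 16.8% of 21045 windows of protein-coding genes held it, against 20.3% of the 1591 windows that overlapped a region of all 3 libraries and 17.0% of the 16800 that overlapped no peak. ACAATG was in 10.5% and the octamer in 1.68% of all windows. A match is a run of letters and does not show a site in use. The 4 windows were rich in G and C, with 74.7% for Plxnb1, 70.3% for Plxnb2 and 65.3% and 71.7% for Sema4b, where the median was 56.7% over all windows and 60.3% over those with a region of all 3 libraries. The Sema6c window over a region of 2 libraries was closer to these medians, with 62.7%. The promoter table held 37 windows for 26 of the 31 genes; Sema3b, Sema3f, Sema6a, Plxna1 and Plxna4 had none.

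SOX2 regions found in all 3 libraries lay at 16 of the 31 genes, or 51.6%, where 22.5% of all 21631 protein-coding genes had one. They were held by 9 of 20 semaphorins, 6 of 9 plexins and 1 of 2 neuropilins. At least 2 such regions were held by 8 genes, against 7.1% of all protein-coding genes: Sema3a, Sema4c, Sema4d, Sema5b, Sema6d, Plxna4, Plxnc1 and Nrp1. Of these, Sema3a, Sema4c, Sema6d and Plxnc1 fell to 1 region under at least 1 stricter setting, given below. Another 6 genes had only regions of 1 or 2 libraries, so that 22 of 31 had some peak, where 44.6% of all genes did. No library had a peak at Sema3b, Sema3c, Sema3d, Sema3g, Sema4f, Sema4g, Sema6b, Plxna3 or Plxnb3.

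**Figure D1:**
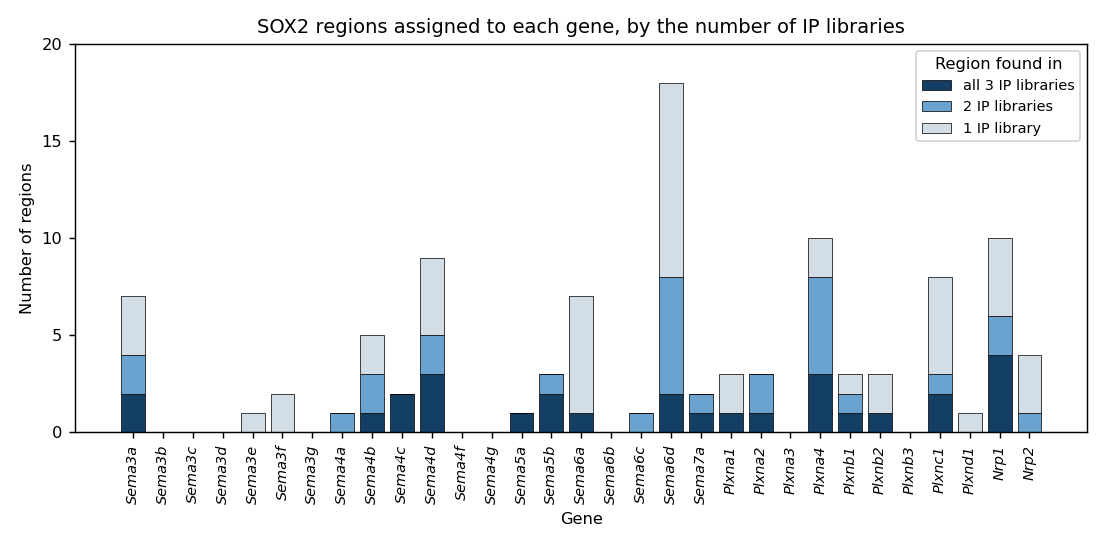
Number of SOX2 regions (y) assigned to each of the 31 genes (x), stacked by how many IP libraries held a peak there. Sema6d has 18 regions but only 2 of them in all 3 libraries, Nrp1 has 4 regions in all 3 libraries, and 9 genes have no bar.

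Over all protein-coding genes the share rose with gene length, and the reason for this was not tested. Among genes with a span under 20 kb, 1 of 8 of these guidance genes had a region in all 3 libraries, beside 13.4% of all genes of that length. At 20 to 50 kb it was 5 of 9 beside 23.3%, at 50 to 150 kb 4 of 5 beside 37.2%, and over 150 kb 6 of 9 beside 57.6%. In the shortest and the longest class the share was thus close to that of other genes, and in the middle classes it was higher. Inside gene spans there were 6.39 regions per Mb at the guidance genes (25 regions) and 4.74 per Mb over all protein-coding genes. Over 150 kb, however, the guidance genes had fewer regions per gene than all genes of that length, 1.22 against 1.50. Of the 28 regions, 25 (89.3%) lay inside the span, where 64.0% of the 7753 regions assigned to any gene did.

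**Figure D2:**
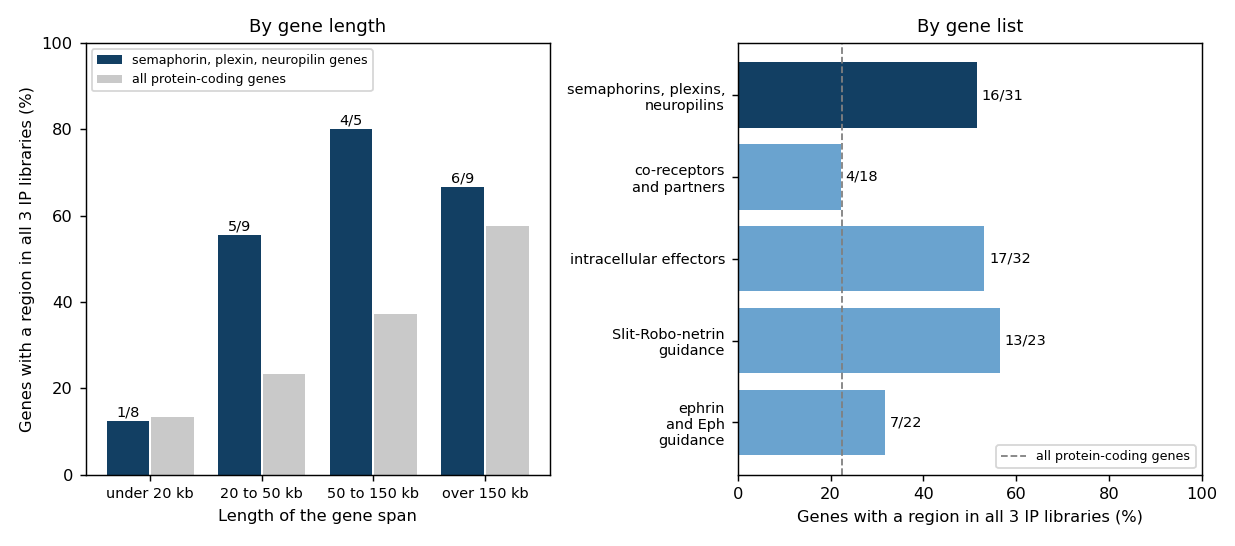
Share of genes with a SOX2 region in all 3 IP libraries (%), by length of the gene span (left; dark bars, semaphorin, plexin and neuropilin genes; grey bars, all protein-coding genes) and by gene list (right; dashed line, all protein-coding genes at 22.5%). Numbers at the bars are genes with a region over genes in the class; the gap between dark and grey bars is small under 20 kb and over 150 kb.

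In strength the regions were ordinary in the main setting. Their median was 7.86 normalized tags, beside 7.58 over all regions assigned to a gene, and in the order of all 9334 regions found in all 3 libraries the median one stood at percentile 52.5. Under some stricter settings, given below, the median was lower than that of all regions. Of the 28, 18 had a mean between 6.5 and 10 normalized tags. Only 1 reached the top decile of all such regions, at 15.0 normalized tags or more, and 1 was in the bottom decile. The median enrichment over the input, the authors' fold averaged over libraries, was 15.6-fold beside 14.9-fold over all assigned regions. IP library 3 had the lowest value in 20 of the 28 regions (71.4%), which also held for 60.2% of all assigned regions. The median SD of a region was 16.7% of its mean, beside 17.2% over all assigned regions.

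**Figure D3:**
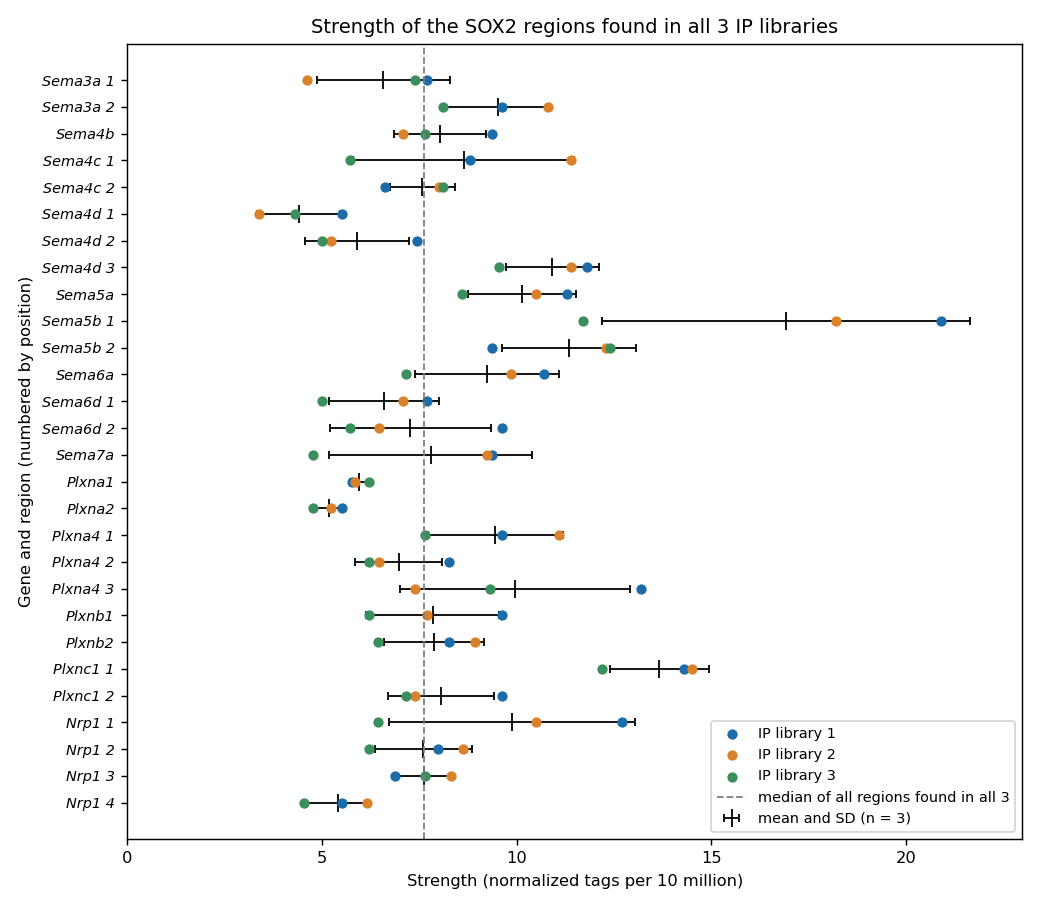
Strength in normalized tags (x) of the 28 regions found in all 3 IP libraries, numbered along the chromosome within a gene; coloured points are the libraries, black marks the mean and SD (n = 3), and the dashed line the median of 7.63 over all 9334 such regions. The first region of Sema5b and the first of Plxnc1 lie to the right of the line in every library, and the first region of Sema4d to its left.

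Among the ligands, the secreted class 3 semaphorins had the fewest regions for their number. Only Sema3a of 7 (14.3%) had one in all 3 libraries, beside 22.5% of all protein-coding genes. Sema3c, Sema3d and Sema3e have spans of 155, 206 and 231 kb, a length at which 57.6% of all genes had such a region. Sema3b and Sema3g span 11.6 and 12.5 kb, where 13.4% of all genes had one. Sema3f spans 29.0 kb, where 23.3% did. Sema3a encodes the prototype axon repellent of the class, which also occurs in the nets around adult interneurons. Its stronger region, on chromosome 5 from 13529277 to 13529579, held 9.63, 10.8 and 8.12 normalized tags in IP libraries 1, 2 and 3 (9.52 ± 1.34, n = 3), 133 kb from the only listed start. The peaks of the 3 libraries had only 2 bp in common there. The second region, 29.4 kb away, had 6.58 ± 1.70. Without IP library 1, 4 regions recurred in both other libraries. Sema3e, a ligand that binds plexin D1 without a neuropilin, had 1 peak in IP library 3 (4.54 normalized tags), and Sema3f, which acts through neuropilin 2, had 1 peak each in IP libraries 1 and 2 at different places (8.26 and 3.39).

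Class 4 semaphorins, membrane proteins that bind B-type plexins, had regions in all 3 libraries at 3 of 6 genes. Sema4d, which is made by oligodendrocytes and immune cells among others, had 3 such regions within 18.6 kb. The strongest, on chromosome 13 from 51771771 to 51772003, held 11.8, 11.4 and 9.55 normalized tags (10.9 ± 1.20, n = 3). The others had 5.89 ± 1.34 and 4.40 ± 1.06, and in every library both were below it. The weakest of the 28 regions was this last one, with 5.51, 3.39 and 4.30 normalized tags, which in IP library 2 is about 11 tags by strength.

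Sema4c, which signals through plexin B2, is only 12.1 kb long and was the 1 gene under 20 kb with such a region. It had a pair of them 0.525 kb apart, at 0.889 and 0.365 kb inside the gene from the nearest listed start. The one farther in, on chromosome 1 from 36556579 to 36556756, held 8.81, 11.4 and 5.73 normalized tags (8.65 ± 2.84). The other held 6.61, 8.00 and 8.12 (7.58 ± 0.839), so it was the weaker in IP libraries 1 and 2 and the stronger in IP library 3. Sema4b, whose product is found at synapses, had a region in all 3 libraries at 0.365 kb inside the gene, on chromosome 7 from 80187120 to 80187351, with 9.36, 7.08 and 7.64 normalized tags (8.03 ± 1.19). A region of 2 libraries lay on its first listed start, with 4.13 and 5.23 normalized tags in IP libraries 1 and 2. Another lay upstream of the second start and ended before it, with 6.77 and 4.54 in IP libraries 2 and 3. Sema4a had a region of 2 libraries only, 0.462 kb outside the gene (5.78 and 5.54 in IP libraries 1 and 2).

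Class 5 semaphorins, large membrane proteins with thrombospondin repeats, had such a region at both genes and held the strongest of all 28. This first region of Sema5b, a repellent for cortical and retinal axons, lay 40.2 kb inside the gene on chromosome 16 from 35581451 to 35581616. It held 20.9, 18.2 and 11.7 normalized tags, or about 76, 59 and 49 tags (16.9 ± 4.73 normalized tags, n = 3). By strength it stood at percentile 92.9 of all regions found in all 3 libraries. The authors' enrichment over input was 138-fold, 120-fold and 77.1-fold, but the input was at its floor of 0.5 tags, so these folds depend on that floor. A second region of Sema5b, 10.5 kb farther in, held 9.36, 12.3 and 12.4 normalized tags (11.4 ± 1.73). In IP library 3 the second was the stronger by a little, and in the other libraries the first was.

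Sema5a had 1 region, on chromosome 15 from 32568949 to 32569256, with 11.3, 10.5 and 8.60 normalized tags (10.1 ± 1.39). It lay 324 kb from the listed start of this gene of 452 kb. The peaks of its 3 libraries shared only 3 bp, and with overlaps of at least 0.5 of both lengths the gene no longer had a region in all 3.

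Class 6 semaphorins, membrane proteins that act as ligands and also as receptors for A-type plexins, had regions in all 3 libraries at Sema6a and Sema6d. Sema6d, the longest of the 31 genes at 578 kb, gathered 18 regions, 2 of them in all 3 libraries, 6 in 2 and 10 in 1. Its peaks numbered 9, 8 and 11 in IP libraries 1, 2 and 3, so the libraries found a like number of peaks. The 2 recurring regions had 7.27 ± 2.07 and 6.60 ± 1.41 normalized tags and lay 80.5 kb apart. Without IP library 2, 6 regions recurred in both other libraries.

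Sema6a, on chromosome 18, had 1 such region of 7, with 10.7, 9.85 and 7.16 normalized tags (9.24 ± 1.85), 53.1 kb inside the gene from the nearer end. The other 6 were each found in 1 library. Sema6c had a region of 2 libraries on its first listed start (4.95 and 6.77 in IP libraries 1 and 2). Sema7a, the only member anchored by a lipid tail, which binds plexin C1 and integrins, had a region 10.6 kb from its start with 7.79 ± 2.61 normalized tags and another of 2 libraries.

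Among the receptors, A-type plexins, which transduce class 3 signals with neuropilins and class 6 signals alone, had regions in all 3 libraries at Plxna1, Plxna2 and Plxna4. Plxna4, which is 444 kb long, had 10 regions, all but 1 inside the gene, of which 3 recurred in all libraries. Without IP library 1, 5 recurred in both others, and without IP library 3, 6 did. The first of the 3, on chromosome 6 from 32261364 to 32261546, held 9.63, 11.1 and 7.64 normalized tags (9.46 ± 1.74). The third, on the same chromosome from 32397100 to 32397267, held 13.2, 7.39 and 9.31 (9.97 ± 2.96), so their ranges over the libraries overlapped. A region found in IP libraries 1 and 2 only held 7.43 and 11.1 normalized tags. The medians of the 28 regions in these libraries were 9.36 and 8.155, so it was below in the first and above in the second. Plxna1 and Plxna2 each had 1 weaker region, with 5.95 ± 0.231 and 5.17 ± 0.368.

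Of the plexins with a listed start, the B-type genes Plxnb1 and Plxnb2 had a region on it. Plxnb1, the receptor of Sema4d, held 9.63, 7.69 and 6.21 normalized tags there (7.84 ± 1.72), with the centre 0.061 kb downstream of the start. Plxnb2, a receptor of progenitors in the developing brain, held 8.26, 8.93 and 6.45 (7.88 ± 1.28), with the centre 0.053 kb downstream. Of these 2 regions, whose sequences are printed above, that of Plxnb1 was the stronger in IP library 1 and the weaker in IP libraries 2 and 3. Plxnb1, Plxnb2, Sema4b and Sema4c were the only genes of the 31 with a region in all 3 libraries within 1 kb of a listed start: 5 of 23 regions that could be measured (21.7%), beside 25.9% of all assigned regions. Another 16 lay over 10 kb from every listed start of their gene.

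Plxnc1, the receptor of Sema7a, held the second strongest of the 28 regions. It lay 115 kb inside the gene, on chromosome 10 from 94829564 to 94829758, and had 14.3, 14.5 and 12.2 normalized tags (13.7 ± 1.27). Of the 28, only this one and the first region of Sema5b were above 10 in every library. A second region, from 94990892 to 94991175 and thus 46.0 kb beyond the span, held 9.63, 7.39 and 7.16 (8.06 ± 1.36). The peaks of the 3 libraries had only 21 bp in common there. Plxnc1 kept only 1 region with peaks of at least 8-fold, with overlaps of 0.5 of both lengths, or with 5 kb around the span. Plxnd1, the receptor of Sema3e and a gene of blood vessels, had 1 peak in IP library 3 (3.82).

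The neuropilins differed in number of regions. Nrp1, a co-receptor of class 3 semaphorins and of the vascular growth factor VEGF, had 4 in all 3 libraries. No other gene of the 31 had as many, but this lead depended on the setting. Without IP library 1, Plxna4 had 5 and Nrp1 4, without IP library 2, Sema6d had 6 and Nrp1 4, and with 5 kb around the span Nrp1 had 2, fewer than Plxna4 and Sema4d with 3 each. The strongest, on chromosome 8 from 128383339 to 128383522 and 24.4 kb inside the gene, held 12.7, 10.5 and 6.45 normalized tags (9.88 ± 3.17). The others had 7.60 ± 1.25 inside the gene and 7.61 ± 0.715 and 5.40 ± 0.815 at 23.3 and 29.4 kb beyond it. Peaks at Nrp1 numbered 10, 6 and 4 in IP libraries 1, 2 and 3. Nrp2, the other neuropilin and of like length, had 2, 2 and 1 peaks and none that recurred in all 3 libraries.

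**Figure D4:**
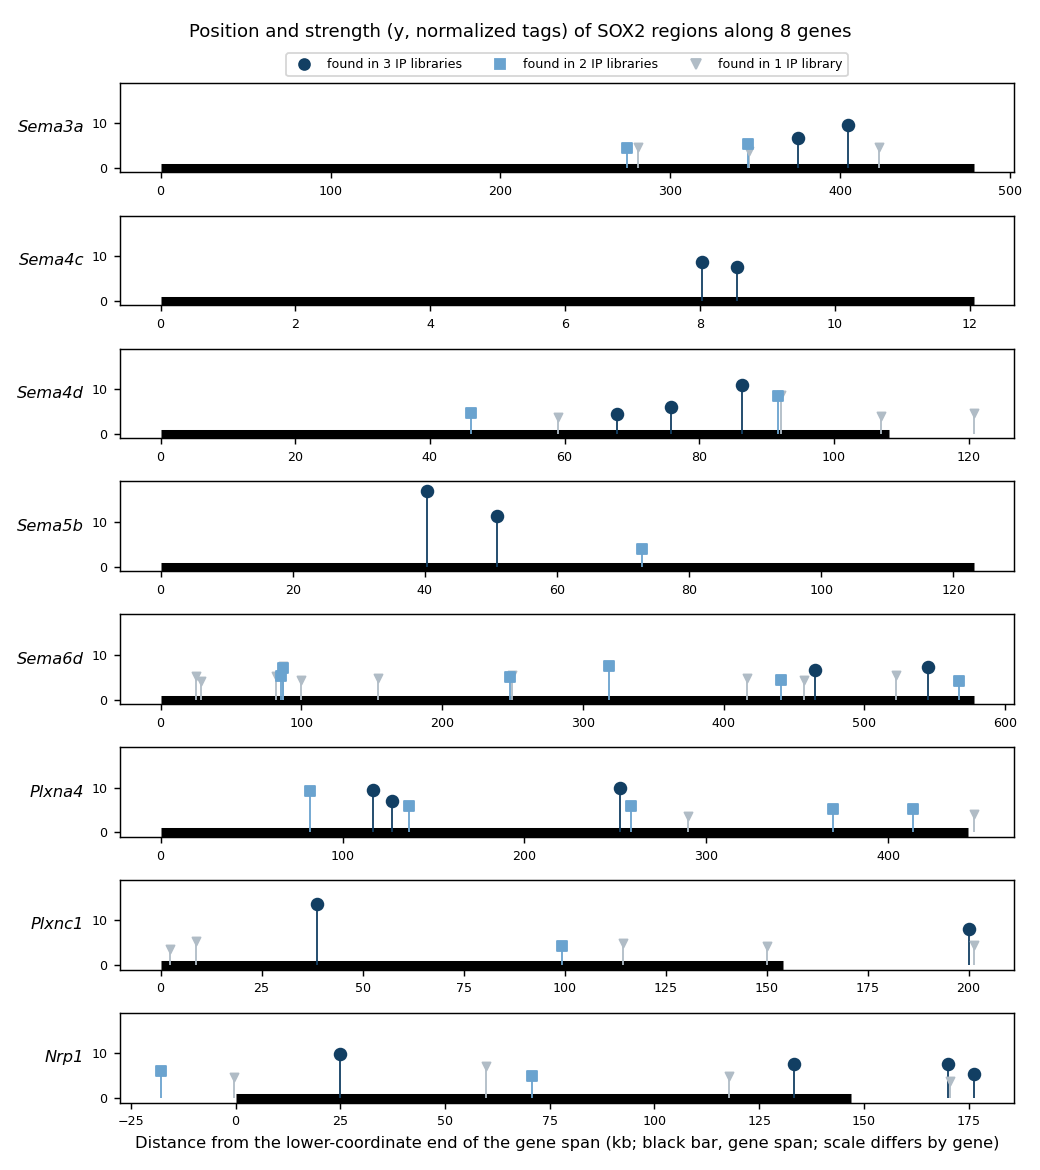
Position of SOX2 regions along the 8 genes with at least 2 regions in all 3 IP libraries: distance in kb from the lower-coordinate end of the gene span (x, scale differs by gene; black bar, span) against mean strength in normalized tags (y). Circles are regions in 3 libraries, squares in 2 and triangles in 1; in Sema6d they are scattered over the gene, while in Sema4d the 3 circles stand within 18.6 kb.

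Known ligand and receptor pairs were set side by side as a description; the pairs come from textbook knowledge and were listed with the regions already seen. Of 22 pairs, both partners had a region in all 3 libraries in 9, 1 partner in 7 and neither in 6. Of the single genes, 16 of 31 (51.6%) had one. Whether 9 pairs are more than this share would give was not tested. Both had one in Sema3a with Nrp1, Sema4c with Plxnb2, Sema4d with Plxnb1 and Sema7a with Plxnc1. The others of the 9 were Sema6a with Plxna2 and with Plxna4, and Sema5a, Sema5b and Sema6d with Plxna1. Neither had one in Sema3c or Sema3e with Plxnd1 or in Sema3b, Sema3c, Sema3f or Sema3g with Nrp2. Pairs share genes, so they are not independent of each other.

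The 50 kb limit touched few regions. The outermost inside it was that of Plxnc1 at 46.0 kb, and the nearest beyond it was a region 53.2 kb from Sema6d with 9.91, 12.6 and 10.3 normalized tags, above the 2 that were counted for that gene.

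Genes that act with the family were described from lists chosen with earlier results known. Of 32 intracellular effectors, 17 (53.1%) had a region in all 3 libraries, beside 22.5% of all protein-coding genes, but their median span of 72.3 kb was above the 40.5 kb of the semaphorins, plexins and neuropilins. The median strength of their 33 regions was 8.97 normalized tags. The strongest was that of Mical2, of a family of enzymes that oxidise actin downstream of plexins, with 34.4 ± 6.41. Trio, an exchange factor for small GTPases, followed with 19.2 ± 4.18 at 25.5 kb outside the gene. Farp1, an exchange factor for Rac, had 8 regions, the strongest with 17.9 ± 1.75, and Cfl1, the actin-severing protein cofilin, had 1 with 15.2 ± 2.82.

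Of 18 co-receptors and partners only 4 (22.2%) had one. These were Nrcam, an adhesion protein that pairs with neuropilins, with 7 regions led by one of 24.4 ± 1.82, the integrin gene Itgb1 (14.3 ± 2.96), Vegfa (9.72 ± 2.84) and the adhesion gene Chl1 (4.92 ± 0.860). The share in this list was close to that of all protein-coding genes, and the strongest region of Nrcam was above all 28 of the semaphorins, plexins and neuropilins in every library.

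Other guidance families gave the following values. Slit, Robo and netrin genes with their partners had regions in all 3 libraries at 13 of 23 (56.5%), with a median strength of 6.83 normalized tags, but these genes are long, with a median span of 229.5 kb against 40.5 kb for semaphorins, plexins and neuropilins. Srgap3, a GTPase activator that binds Robo receptors, led with 22.8 ± 0.814, before Robo1 (17.2 ± 1.82), Ntn1 (15.3 ± 6.21) and Slit1 (14.3 ± 3.76). Ephrin and Eph genes had regions at 7 of 22 (31.8%), with a median strength of 8.06 and a median span of 27.8 kb, and were led by Efna5 (19.7 ± 3.21), Epha4 (11.7 ± 3.27), Ephb1 (10.9 ± 1.95) and Ephb3 (9.95 ± 2.78). The differences between these lists were not tested.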

How the data were processed

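Per the submitters' processing notes, Bowtie 1.0.0, HOMER 4.7 and the mm10 build were used. The authors ran HOMER findPeaks in factor mode on each IP library alone against the input, per the file headers, at 4-fold over the input and over the local 10 kb, a p-value of 0.0001 and a false discovery rate of 0.001. Strength is the deposited signal of normalized tags. The deposited tag counts (whole counts in IP library 2 only), score, p-value and focus ratio (a fraction, the authors' value) were not used, except the score, for the least a peak needed and to choose the stronger 0.5 of peaks; the authors' fold is a ratio with the input raised to at least 0.5 tags. The approximate tag numbers of a peak were computed from the signal and the library total.

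Peaks sharing at least 1 bp were chained into regions, whose strength in a library is that of their strongest peak there. A region went to the nearest of 21631 protein-coding spans within 50 kb (RefSeq, GRCm38.p6), and at equal distance to the shorter gene. No genome came with the files, so only promoter windows were searched for motifs, and exons and introns were not annotated. The members and lists were chosen with earlier results of these data known. Per-library values were due for the 12 strongest regions, and up to 4 genes were named per other list; further values, such as those of Plxnb1, Plxnb2 and Sema4b, were chosen after they were seen. Merging and assignment were tested on simulated data. Python 3.11.15, numpy 2.4.6 and pandas 2.3.3 were used.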

Additional observations from a re-analysis of the deposited data

How the results depend on the processing

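The 16 genes, 28 regions and median of 7.86 normalized tags were recomputed under 11 alternatives. The number of genes ran from 14 to 21. With peaks of at least 8-fold over the input it was 14, beside 15% of all genes. The stronger 0.5 of peaks also gave 14, beside 15.2%. These settings left 20 and 22 regions, with medians of 7.95 and 8.35, beside 8.88 and 9.69 over all regions. With every gene within 50 kb counted there were 21 genes, where 46.6% of all genes had a region. With regions of at least 2 libraries there were 56 regions, as that setting adds weaker regions by construction, and 19 genes beside 31.1% of all genes. The median of the 56 was 6.05, beside 6.385 over all regions. Leaving out 1 library gave 16 to 19 genes, beside 24.9% to 26.4% of all genes, and 35 to 40 regions. The median was 6.95 to 7.82, beside 6.96 to 7.285 over all regions. Each such run asked for a peak in both libraries left, less than in all 3. It could thus add genes but hardly lose any. Without IP library 3, Nrp2, Sema4a and Sema6c were added. Under all alternatives 12 genes kept a region, while Plxna1, Plxna2, Sema5a and Sema7a each lost theirs in at least 1. Most alternatives loosen a demand or widen the reach, so they could hardly remove a gene. The stricter ones were 8-fold, the stronger 0.5, overlaps of 0.5 of both lengths and 5 kb around the span. They lost 2, 2, 1 and 0 of the 16 genes. By fold in place of strength, the median rank was percentile 51.1, beside 52.5. Of 253 counts for single genes under an alternative, 206 were within 1.5 times the reported one, 32 were higher and 15 lower. These counts cover 23 genes, and the reported count of Nrp2, Sema3b, Sema3f, Sema4a, Sema4g, Sema6b and Sema6c was 0. For these genes a count of 0 under an alternative was taken as within 1.5 times, which raises the 206. Leaving out 1 library also gave 2 regions in place of 1 for Plxna2 (without IP library 1 or 2), Plxnb1 (without 2), Sema4b (without 1 or 3) and Sema7a (without 3). With peaks of at least 8-fold, Sema3a, Sema4c, Sema6d and Plxnc1 fell from 2 regions to 1. The stronger 0.5 of peaks did the same for Sema3a and Sema6d. Overlaps of 0.5 of both lengths did so for Sema3a and Plxnc1, and 5 kb around the span for Plxnc1. No paired analysis was possible because there is 1 condition and the only other sample, the input, is not analysed here as a table. Peaks had to reach a score of 13 to 16 tags, so a gene without a peak may have weaker signal than these libraries show. Intervals from tags would cover counting error only.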

Other observations

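Some regions close to semaphorin and plexin genes belong to a neighbour under the nearest-gene rule. There were 12 such regions, found in all 3 libraries, within 50 kb of 9 of the 31 genes. Of these genes, Sema3b, Sema3f, Sema4g, Sema6b and Sema6c had no such region of their own. The strongest lay on chromosome 7 from 80149442 to 80149600, 37.3 kb outside Sema4b and 30.9 kb from Idh2, an enzyme of the mitochondrial citrate cycle. It held 20.9, 20.9 and 15.5 normalized tags (19.1 ± 3.12, n = 3), a higher mean than any region assigned to the 31 genes themselves. A region inside Gnai2, a G protein subunit gene, lay 21.5 kb outside Sema3b and held 13.2, 14.8 and 11.5 (13.2 ± 1.65). A region inside Slc38a3, a glutamine transporter gene, lay 21.7 kb outside Sema3f and held 7.43, 9.85 and 9.31 (8.86 ± 1.27). A region inside Ccdc51 lay 5.57 kb outside Plxnb1 and held 11.6, 7.39 and 6.21 (8.40 ± 2.83). The files do not show which gene any of these regions acts on.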
